A study of Mus musculus with 18 samples.

Results

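The response to TCDD of mouse fibroblasts that also received an adipogenic mix and EGF was read from 4 of 18 arrays, chosen by their labels. The tested cells were labelled IDMB+EGF+TCDD (2 arrays) and the cells they were set against IDMB+EGF (2 arrays). All 4 arrays carried IDMB and EGF, so TCDD was the 1 treatment that differed between them by label. C3H10T1/2 is a fibroblast line from mouse embryos that can be turned into fat cells in culture. IDMB combined insulin (10 µg/mL) with the PPARG agonist BRL49653, also called rosiglitazone (1 µM), IBMX (0.5 µM) and the glucocorticoid dexamethasone (1 µM), and was present for 24 h. Cells with EGF had 10 nM of it over the same 24 h. TCDD exposure lasted 72 h at 10 nM. Each array received mRNA pooled from 6 cultures, collected 72 h after serum was last present and 24 h after confluence. The same step was also made in IDMB alone (2 arrays with TCDD, 3 without), in EGF alone (2 and 2) and in cells labelled UT (2 and 3), which had none of the 3 treatments. The labels do not state whether arrays of a group came from separate experiments, so p-values measure the spread between arrays, which may be technical.

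TCDD is a persistent ligand of the aryl hydrocarbon receptor (AhR), a transcription factor. In the nucleus AhR acts with its partner ARNT and binds the core letters GCGTG near genes of xenobiotic metabolism. Fat cell differentiation starts with the factors CEBPB and CEBPD, which switch on PPARG and CEBPA and through them the genes of lipid storage. EGF signals through its receptor and the ERK kinases, and both EGF and TCDD are known to hold back fat cell differentiation in culture. The levels below are log2 intensities, 1 unit of which is a doubling, and 7.16 is the floor to which lower values were set.

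The label of the mix was checked on a known target of dexamethasone. The glucocorticoid-induced co-chaperone Fkbp5 stood at 13.32 and 13.34 with TCDD and at 13.68 and 13.58 without it, against a mean of 9.15 in UT. Fosl1, an AP-1 subunit induced by ERK signalling, stood at 11.42 and 11.72 with TCDD and at 11.40 and 11.57 without it, against 8.11 in UT, but it also averaged 11.38 in IDMB without EGF and so does not mark EGF on these arrays. Of 14 fibroblast marker genes on the array 11 passed the filter on low values, and none of these was called. Their summed intensity was 386752 and 403140 with TCDD and 502048 and 356489 without it. At the floor on all 4 arrays were 5 of 18 macrophage markers (Adgre1, Itgam, Lyz2, Marco and Ptprc), 3 of 12 endothelial (Cdh5, Cldn5 and Icam2), 5 of 15 epithelial (Cldn7, Krt7, Krt14, Krt15 and Krt19) and 3 of 22 skeletal muscle markers (Acta1, Chrna1 and Myf5). The others were above it on at least 1 array, and 5, 3, 1 and 8 markers of these lists passed the filter, none of them called. The summed intensity of the macrophage list was 10327 and 12672 with TCDD and 10474 and 11468 without it, and that of the endothelial list 10173 and 12131 with TCDD and 13574 and 11109 without it. For the epithelial list it was 4662 and 4824 with TCDD and 4810 and 5448 without it, and for the skeletal muscle list 11271 and 12561 with TCDD and 14225 and 11850 without it. Signal at the 3′ end over that at the 5′ end of actin, a sign of RNA length, was 2.48 and 3.80 with TCDD and 2.39 and 2.24 without it. For the Gapdh control probes it was 2.13 and 2.86 with TCDD and 1.76 and 1.75 without it. These ratios moved with the groups, IDMB+EGF+TCDD 2 standing highest, and counts made with them as a covariate stand beside the results.

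With TCDD, a small set of genes changed. Those higher included the aldehyde dehydrogenase Aldh3a1, the glypican Gpc1 and the enzymes Cyp1b1 and Adh7, and those lower included Celf2, Fgfr2, Sfrp2 and the lipid droplet gene Plin2. Limma called 26 of 7134 tested probes at an adjusted p under 0.05 (0.364%), 16 higher (0.224%) and 10 lower (0.14%). They stood for 21 named genes, 13 higher and 8 lower, and 4 probes without a gene symbol. This counts a gene called on any probe. By the brightest tested probe of each gene, the rule used for lists below, 11 genes were higher and 7 lower. All 26 were separated between the groups on every array, as were 33.8% of all tested probes. Where a lack of overlap is stated below for a called gene, it therefore adds nothing to the call. At an unadjusted p under 0.05 there were 505 probes, 249 higher and 256 lower. Leaving out IDMB+EGF+TCDD 2 left 5 of the 26 called, leaving out IDMB+EGF+TCDD 1 left 15, and leaving out either IDMB+EGF array left 10. In all, 6 probes were called without IDMB+EGF+TCDD 2 and 13 without IDMB+EGF 1. Both probes of Aldh3a1, Gpc1 and Cyp1b1 were called in each of these fits. With the actin ratio as a covariate 3 probes were called (both of Aldh3a1 and Gpc1) and with the Gapdh ratio 5, and fitting the 4 arrays alone gave 11.

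Aldh3a1, an aldehyde dehydrogenase and a known AhR target, had the largest difference of a named gene. Its brighter probe gave 15.84 and 16.09 with TCDD, against 12.01 and 10.77 without it. Every TCDD array was thus far above both arrays without TCDD, and on the linear scale the intensities were 58836 and 69750 with TCDD against 4130 and 1749 without. The difference was log2 4.57 (SE 0.362, n = 2 each, limma adjusted p = 6.76e-06), or 23.8-fold. Because the IDMB+EGF arrays differed from each other, the fold was 15.5 without IDMB+EGF 2 and 36.6 without IDMB+EGF 1. A dimmer Aldh3a1 probe gave 12.34 and 13.16 with TCDD, against 7.64 and 7.69 without it, a 34.0-fold difference (log2 5.09, SE 0.462, adjusted p = 2.49e-05).

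Gpc1, the heparan sulfate carrying membrane protein glypican-1, was at 15.83 and 16.12 with TCDD, against 13.50 and 13.69 without it. Arrays within a group were close to each other, and the groups lay far apart. It was 5.22-fold higher (log2 2.38, SE 0.239, adjusted p = 6.65e-05). Of 12 tested genes for glypicans, syndecans and heparan sulfate synthesis, Gpc1 was the only one called, and the median log2 difference was 0.07, against 0.02 for all 5438 tested genes. Gpc4, another glypican, was at 10.30 and 10.58 with TCDD and at 11.12 and 11.18 without it (log2 -0.71, adjusted p = 0.293). Sdc4, a syndecan that carries the same sugar chains, differed by 0.14 (adjusted p = 1).

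**Figure D1:**
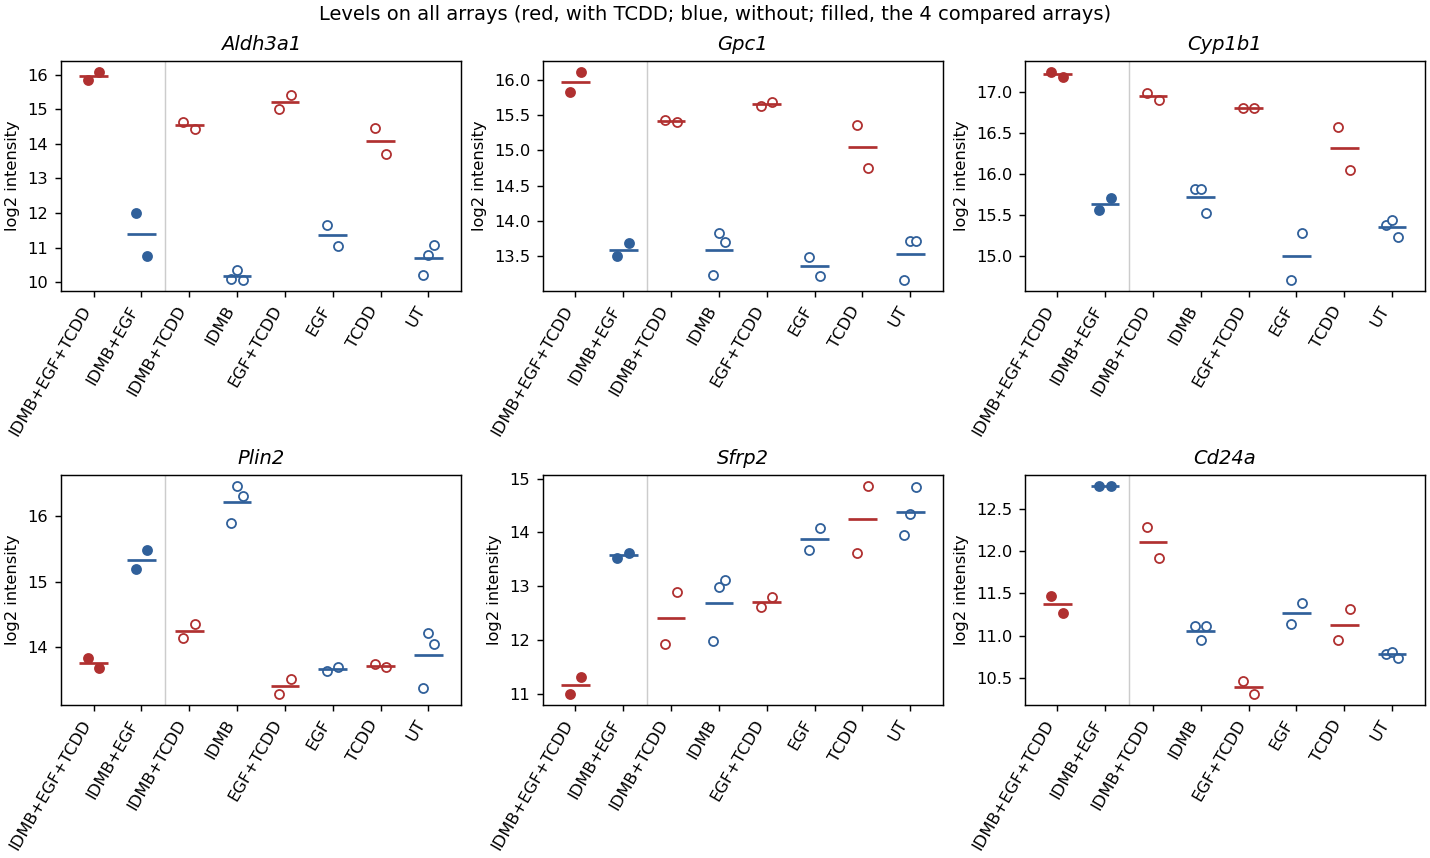
Log2 intensity of 6 genes on all 18 arrays (y axis) by group (x axis); points are arrays and bars are group means. Aldh3a1, Gpc1 and Cyp1b1 stood higher with TCDD in all 4 backgrounds, Plin2 stood highest in IDMB and next in IDMB+EGF, and Cd24a was higher with TCDD in IDMB but lower in IDMB+EGF.

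Cyp1b1, a cytochrome P450 that oxidises aromatic hydrocarbons, was among the brightest genes. It stood at 17.25 and 17.18 with TCDD and at 15.56 and 15.71 without it, with narrow spread in both groups. The difference was 2.99-fold (log2 1.58, SE 0.203, adjusted p = 0.00137). This call was lost with the actin covariate and in the fit of the 4 arrays alone. Adh7, an alcohol dehydrogenase that also oxidises retinol, was at 13.66 and 13.38 with TCDD and at 11.58 and 11.34 without it, 4.17-fold higher (log2 2.06, SE 0.336, adjusted p = 0.0114). With Aldh3a1 it made 2 calls among 13 tested genes of aldehyde, alcohol and retinoid metabolism, whose median was 0.17. Its call was lost on leaving out any of the 4 arrays, with adjusted p between 0.0584 and 0.0881, although the log2 difference stayed between 1.92 and 2.20. The promoter windows of both genes, from 250 bases before to 50 after the start site, are shown because they hold the AhR core letters. They are RefSeq sequences of build GRCm38.p6, chr17:79715012-79715311 on the minus strand for Cyp1b1 and chr3:138217523-138217822 on the plus strand for Adh7, with GCGTG or its reverse complement CACGC in capitals.
Cyp1b1: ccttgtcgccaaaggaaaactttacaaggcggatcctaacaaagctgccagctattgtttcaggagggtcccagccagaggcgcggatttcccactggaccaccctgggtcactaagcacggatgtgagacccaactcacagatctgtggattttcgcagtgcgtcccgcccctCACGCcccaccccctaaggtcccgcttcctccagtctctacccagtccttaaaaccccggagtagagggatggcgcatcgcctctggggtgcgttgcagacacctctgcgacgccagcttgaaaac
Adh7: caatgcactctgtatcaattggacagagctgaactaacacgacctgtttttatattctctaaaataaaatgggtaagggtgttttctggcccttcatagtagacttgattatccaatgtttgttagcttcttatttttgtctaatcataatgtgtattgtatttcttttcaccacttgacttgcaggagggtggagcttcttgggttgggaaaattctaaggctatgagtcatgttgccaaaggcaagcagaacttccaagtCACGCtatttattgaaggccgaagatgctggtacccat
The match begins at -76 from the start site in Cyp1b1 and at 12 after it in Adh7. Searching GCGTG on both strands, 5 of the 10 higher genes with a window in the table held it (50%), as did 3 of 6 lower genes (50%). No window was found for the called genes Aldh3a1, Gpc1, Ccn5, Ggh and Cd24a, so these were not searched. Among all tested genes with a window 2580 of 4409 held it (58.5%), and 32.4% of all 32851 windows did.

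Of the 11 tested genes of the AhR pathway, Aldh3a1 and Cyp1b1 were called, none was called lower, and 10 of 11 lay above 0 (median log2 0.76, against 0.02 over all tested genes, of which 2861 lay above 0). Cyp1a1, the classical AhR target, stood low on this array at 10.88 and 10.93 with TCDD and at 9.16 and 7.16 without it, the last at the floor (log2 2.74, adjusted p = 0.11). Tiparp, a PARP enzyme that feeds back on AhR, was at 13.57 and 13.39 with TCDD and at 11.63 and 12.72 without it (log2 1.31, adjusted p = 0.192). In both genes the TCDD arrays stood above both others, but the arrays without TCDD were far apart. Nqo1, a quinone reductase under AhR and NRF2, differed by 0.97 on 1 probe (adjusted p = 0.155) and 1.35 on another (adjusted p = 0.0802), and Ahr itself by 0.57 (adjusted p = 0.825).

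Tiparp showed a further contrast between backgrounds. All levels with TCDD lay between 13.00 and 13.80, while without TCDD it was at 11.63 and 12.72 in IDMB+EGF and averaged 10.05 in EGF and 9.66 in UT. The TCDD difference was log2 1.31 in IDMB+EGF and 1.15 in IDMB (adjusted p = 0.0456), beside 3.52 in EGF (adjusted p = 7.81e-05) and 3.88 in UT (adjusted p = 1.64e-05). The test of the difference between IDMB+EGF and EGF gave log2 -2.22 with an adjusted p of 0.599.

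**Figure D2:**
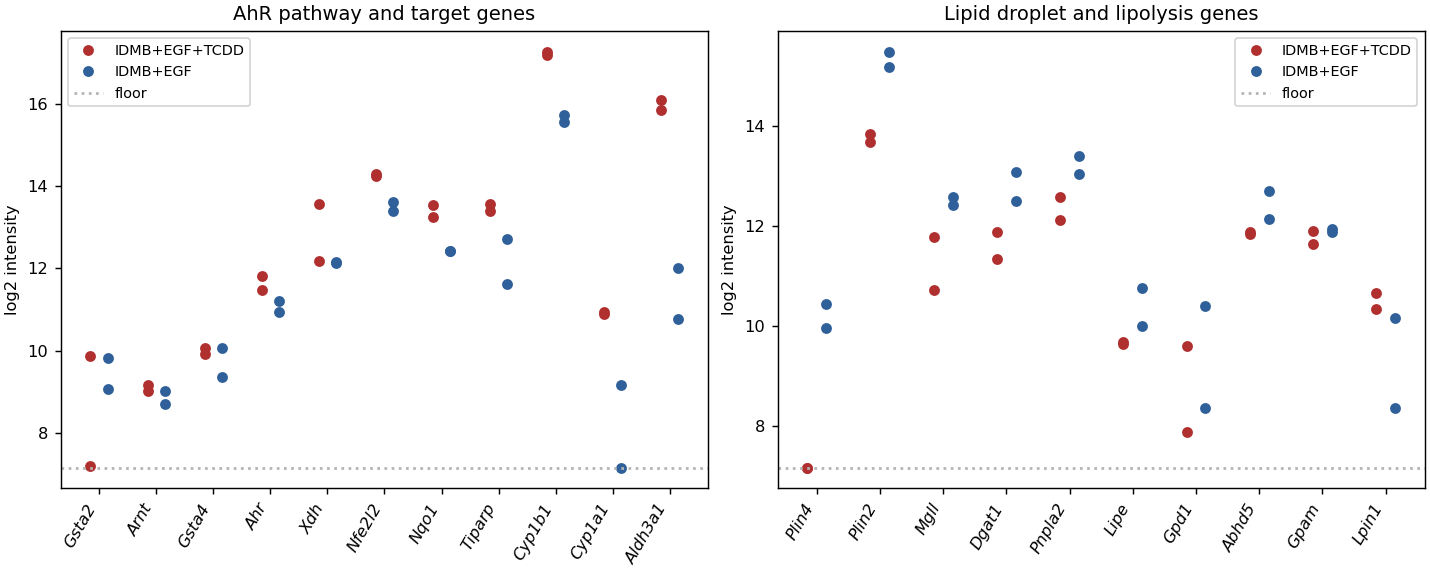
Log2 intensity (y axis) of each tested gene (x axis) of the AhR pathway, left, and of lipid droplets and lipolysis, right, on the IDMB+EGF+TCDD arrays (red) and IDMB+EGF arrays (blue); the dotted line is the floor. The red points stood above the blue ones for Aldh3a1, Cyp1b1, Cyp1a1 and Tiparp, and below them for Plin4, Plin2, Mgll, Dgat1 and Pnpla2.

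Plin2, the coat protein of small lipid droplets, was lower with TCDD. It stood at 13.83 and 13.68 with TCDD and at 15.19 and 15.48 without it, or in intensity 14592 and 13097 against 37425 and 45782. The groups did not overlap, and it was 2.99-fold lower (log2 -1.58, SE 0.242, adjusted p = 0.00676). Its level with TCDD was within the range of the arrays without the mix, where it lay between 13.37 and 14.22 in UT and at 13.63 and 13.69 in EGF, and below the 15.90 to 16.47 of IDMB alone. The call was lost without IDMB+EGF+TCDD 2 (adjusted p = 0.103), without IDMB+EGF 2 (adjusted p = 0.0594) and with either ratio as a covariate, with leave-one-out folds of 2.71 to 3.31. In bulk RNA, fewer cells of a type and less of an RNA per cell cannot be told apart. The promoter window of Plin2 (RefSeq, GRCm38.p6, chr4:86670010-86670309, minus strand) is shown because this lower gene holds the same core letters, in capitals, from -86.
Plin2: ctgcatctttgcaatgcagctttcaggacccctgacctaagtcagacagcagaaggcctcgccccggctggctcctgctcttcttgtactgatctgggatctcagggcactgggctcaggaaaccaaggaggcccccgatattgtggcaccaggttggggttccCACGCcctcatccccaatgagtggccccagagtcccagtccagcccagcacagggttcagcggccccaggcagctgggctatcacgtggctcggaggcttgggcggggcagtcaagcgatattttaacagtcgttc

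The other lipid droplet and lipolysis genes mostly lay below 0 without passing the test. Of 10 tested genes Plin2 was called lower and none higher, 9 lay below 0, and the median log2 difference was -0.79. Without IDMB+EGF+TCDD 1 that median was -1.27, and without IDMB+EGF+TCDD 2 it was -0.67. Plin4, another droplet coat protein, was at the floor on both TCDD arrays and at 10.43 and 9.96 without TCDD (adjusted p = 0.0674). Pnpla2, the lipase that opens triglyceride breakdown, was at 12.58 and 12.12 with TCDD and at 13.03 and 13.40 without it (log2 -0.87, adjusted p = 0.11). Its activator Abhd5 differed by -0.56 (adjusted p = 0.736) and the hormone-sensitive lipase Lipe by -0.71 (adjusted p = 0.852). Dgat1, which makes triglyceride, differed by -1.18 (adjusted p = 0.403), and Mgll, which splits monoglycerides, by -1.24 (adjusted p = 0.463).

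Genes of the fat cell programme gave no call. None of 15 tested fat cell and PPARG target genes was called, with 11 below 0 and a median of -0.18. Ephx2, soluble epoxide hydrolase, was at 8.37 and 7.16 with TCDD and at 10.26 and 10.18 without it (log2 -2.45, adjusted p = 0.0707). Lpl, lipoprotein lipase, was at the floor on both TCDD arrays and at 8.84 and 10.32 without TCDD (adjusted p = 0.386), while its other tested probe gave log2 -0.17 (adjusted p = 1). Among 14 adipogenic transcription factors the median was -0.04. Cebpa was at 11.90 and 12.11 with TCDD and at 13.61 and 13.62 without it (log2 -1.61, adjusted p = 0.297), and Pparg differed by -1.15 (adjusted p = 0.49). The early factors Cebpb and Cebpd differed by 0.27 (adjusted p = 0.929) and 0.09 (adjusted p = 1). Adipoq, which encodes the fat cell hormone adiponectin, was low in both groups, at 7.53 and 8.90 with TCDD and at 9.08 and 9.28 without it.

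To place the comparison on the mix response as a whole, probes were grouped by their response to IDMB against UT in a fit that left out the 4 arrays. With IDMB 451 probes were higher (6.32%) and 526 lower (7.37%). Over the 451 higher ones, the TCDD difference in IDMB+EGF had a median of -0.13 (quartiles -0.41 and 0.12), with 273 below 0 and 178 above. Over the 526 lower ones the median was 0.03, and over all tested probes 0.01 with 51.8% above 0. Calls fell on both lists: 5 probes called lower with TCDD were higher with IDMB (1.11% of that list and 19.2% of the calls), and none called higher was. In turn 5 probes called higher with TCDD were lower with IDMB, and 1 called lower was. Grouped by TCDD against UT in that fit, 262 probes were higher (3.67%) and 262 lower (3.67%), and their median differences in IDMB+EGF were -0.01 and -0.03, with 6 of the higher ones called higher and 1 of the lower ones called lower. These lists rest on UT 2, without which they held 70 and 85 probes, with medians of 0.06 and -0.08 and with 5 called higher and 1 called lower. Without IDMB+EGF+TCDD 2 the median of the IDMB-raised probes was -0.06, and without IDMB+EGF+TCDD 1 it was -0.18.

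**Figure D3:**
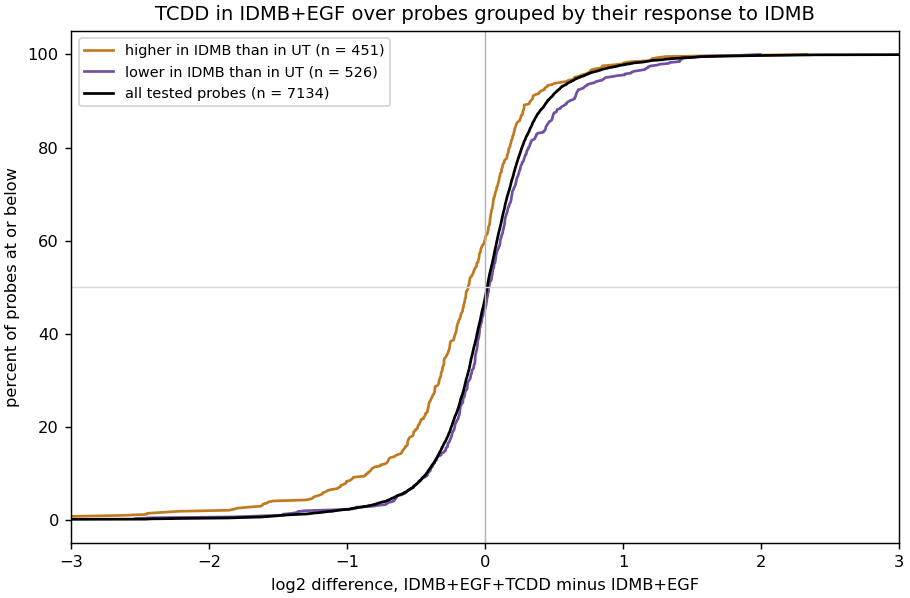
Cumulative percent of probes (y axis) by log2 difference of IDMB+EGF+TCDD minus IDMB+EGF (x axis, shown from -3 to 3) for probes higher with IDMB than in UT (orange), lower (purple) and all tested probes (black). The orange curve lies left of the black one, with its median at -0.13 against 0.01.

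The 5 genes called higher with TCDD that IDMB had lowered were Ifi47, Cxcl12, Bmp4, Ccn5 and Vegfd. Those called lower that IDMB had raised were Plin2, Celf2, Mtss2 and 2 probes without a gene symbol, and Sfrp2 was lower with both. Ifi47 passed the filter on low values only through groups without IDMB, so its place among the IDMB-lowered genes was set by that filter. Bmp4, a bone morphogenetic protein, was at 11.58 and 12.19 with TCDD and at 10.64 and 10.02 without it (2.95-fold, SE of log2 0.300, adjusted p = 0.0315). Its other probe gave log2 1.18 (adjusted p = 0.139). Ccn5, a secreted matricellular protein, was at 14.23 and 14.50 with TCDD and at 13.26 and 12.45 without it (2.85-fold, adjusted p = 0.0295), and was the 1 gene called among 45 of the extracellular matrix, whose median was -0.19. Vegfd, a growth factor for lymphatic vessels, was at 12.52 and 13.17 with TCDD and at 11.69 and 11.15 without it (2.68-fold, adjusted p = 0.0219). None of these 3 calls held without IDMB+EGF+TCDD 2 (adjusted p = 0.499, 0.417 and 0.455 in that order) or without IDMB+EGF 2 (0.178, 0.178 and 0.153), and that of Ccn5 was also lost without IDMB+EGF+TCDD 1 (0.0863).

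The chemokine Cxcl12 and a receptor that takes it up, Ackr3, were both called higher. The Cxcl12 probe called was at 15.50 and 15.88 with TCDD and at 13.83 and 13.88 without it (3.57-fold, adjusted p = 0.0364). Its 2 other tested probes, which were brighter, gave log2 0.87 (adjusted p = 0.164) and 0.50 (adjusted p = 0.788), and the call was lost without any 1 of the 4 arrays (adjusted p between 0.0949 and 0.469). Ackr3 was at 12.52 and 12.80 with TCDD and at 10.92 and 11.32 without it, with no overlap (2.91-fold, log2 1.54, SE 0.256, adjusted p = 0.0116). It was not called without IDMB+EGF+TCDD 2 (0.199) or without IDMB+EGF 1 (0.153). Nrp1, a co-receptor for semaphorins and VEGF, was 1.79-fold higher at 14.32 and 14.47 with TCDD, against 13.66 and 13.45 without it (adjusted p = 0.0489), a call lost without any 1 array (up to 0.525). Another Nrp1 probe gave 0.68 (adjusted p = 0.598).

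The amino acid transporter gene Slc38a2, Kansl2 and Ifi47 were also higher. Slc38a2 was at 15.41 and 15.17 with TCDD and at 13.86 and 14.00 without it (2.56-fold, adjusted p = 0.012). Kansl2, a subunit of a histone acetyltransferase complex, was at 13.39 and 13.35 with TCDD and at 12.45 and 12.43 without it (1.91-fold, adjusted p = 0.016). Ifi47, an interferon-induced GTPase, was at 9.63 and 8.68 with TCDD and at the floor on both arrays without it, at least 3.97-fold higher (adjusted p = 0.0315). Without IDMB+EGF 2 Slc38a2 was called (0.0489) and without the others it was not (up to 0.121). Kansl2 was lost without any array (0.0823 to 0.173), and Ifi47 was called only without IDMB+EGF+TCDD 2 (0.0449) and otherwise lost (up to 0.262). Among 23 tested interferon response genes none was called, with 17 above 0 and a median of 0.33. Inflammatory and acute phase genes gave no call among 22, with 15 above 0 and a median of 0.49. Lists count a gene by its brightest tested probe, so Cxcl12, called on a dimmer probe, added no call to any list.

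Among the lower genes, Sfrp2 and Fgfr2 belong to signalling by WNT and fibroblast growth factors. Sfrp2, a secreted binder of WNT ligands, was at 10.99 and 11.32 with TCDD and at 13.53 and 13.62 without it, 5.35-fold lower (log2 -2.42, SE 0.422, adjusted p = 0.0156). The 14 arrays of the other groups lay between 11.92 and 14.87, all above the TCDD arrays of IDMB+EGF. The call was lost without any 1 of the 4 arrays (adjusted p between 0.0875 and 0.118) while the fold stayed between 4.78 and 5.98. By brightest tested probe, Sfrp2 was the only gene called of 24 adipogenesis inhibitors and preadipocyte genes, whose median was 0.03. Bmp4, of the same list, was called higher on its dimmer probe only. Fgfr2 was at 9.57 and 8.07 with TCDD and at 11.32 and 11.18 without it (5.39-fold, adjusted p = 0.0404). Without IDMB+EGF+TCDD 2 this fold was 3.20 (adjusted p = 0.585) and without IDMB+EGF+TCDD 1 it was 9.08. The call was lost without IDMB+EGF 1 (0.254) or IDMB+EGF 2 (0.123). The other Fgfr2 probes gave log2 -1.15 (adjusted p = 0.626) and -1.03 (adjusted p = 0.386).

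The genes Celf2, Mtss2, Ggh and F3, of unlike roles, were lower too. Celf2, an RNA-binding regulator of splicing, was at 7.16 and 7.86 with TCDD and at 9.79 and 10.52 without it (6.23-fold, adjusted p = 0.0154, with 1 TCDD array at the floor). Mtss2, which binds actin and membranes, was at 10.58 and 10.14 with TCDD and at 12.20 and 12.16 without it (3.54-fold, adjusted p = 0.00936). Ggh, which trims the glutamate tail of folates, was at 11.55 and 11.15 with TCDD and at 12.95 and 12.77 without it (2.84-fold, adjusted p = 0.00515). F3, tissue factor, which starts blood clotting, was at 13.17 and 12.53 with TCDD and at 13.80 and 14.28 without it (2.29-fold, adjusted p = 0.0394). In none of these did the groups overlap, and all were lost without IDMB+EGF+TCDD 2 (adjusted p = 0.0671, 0.17, 0.103 and 0.585 in that order). Celf2 was also lost without IDMB+EGF+TCDD 1 (0.12) and without IDMB+EGF 2 (0.118), and F3 without IDMB+EGF 2 (0.188). Without IDMB+EGF 1 the calls of Mtss2 (0.0753), Ggh (0.0585) and F3 (0.0585) were lost. The probes without a gene symbol were 2.48-fold and 2.82-fold higher in 2 cases and lower in 2, both with IDMB+EGF+TCDD 2 at the floor, so that their folds of 25.9 and 9.60 depend on the floor. The fold of 9.60 was 6.30 without IDMB+EGF+TCDD 2 (adjusted p = 0.487) and 14.6 without IDMB+EGF+TCDD 1. The other lower probe had intensities of 1508 and 143 with TCDD and 7519 and 19270 without it, and its fold was 7.98 without IDMB+EGF+TCDD 2 (adjusted p = 0.533) and 83.9 without IDMB+EGF+TCDD 1.

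**Figure D4:**
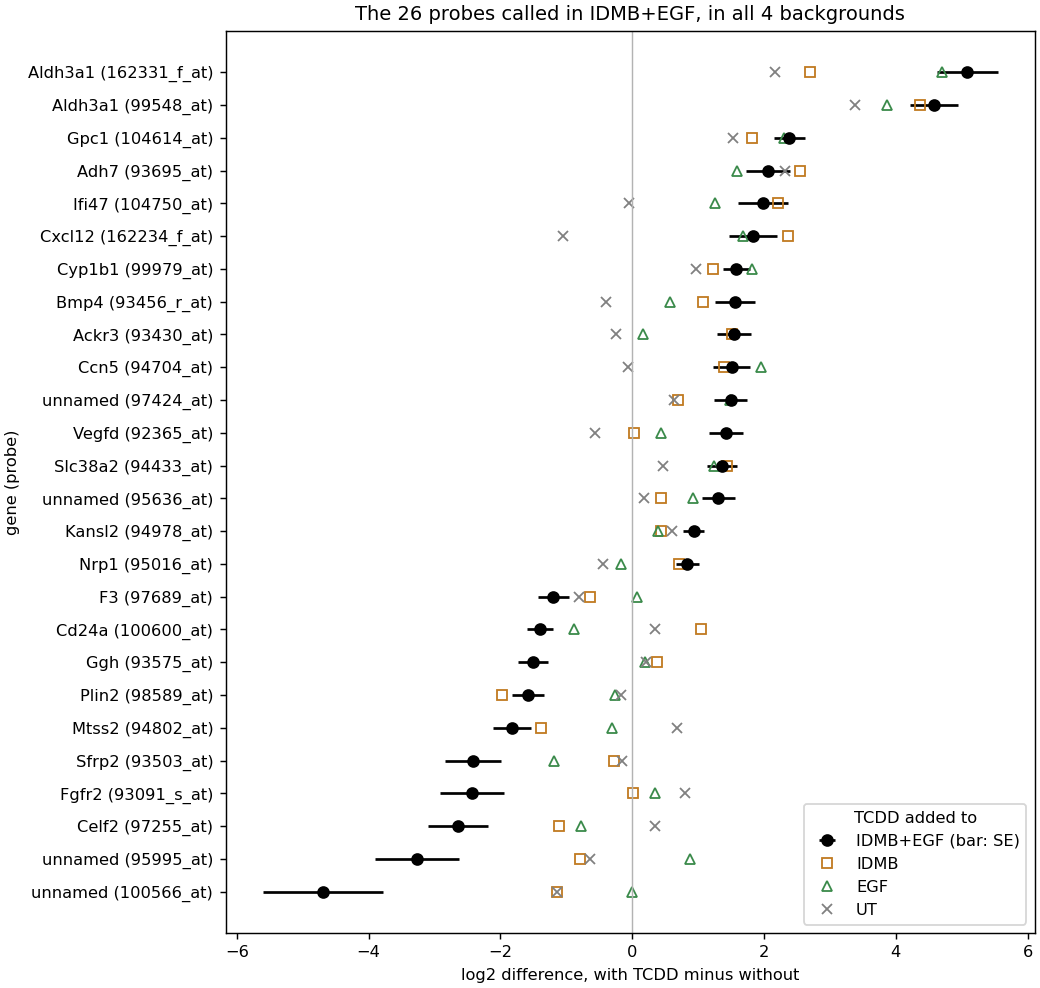
Log2 difference with TCDD minus without (x axis) of the 26 called probes (y axis) in IDMB+EGF (black, bars are the SE), IDMB (squares), EGF (triangles) and UT (crosses). Probes of Aldh3a1, Gpc1, Adh7 and Cyp1b1 lie right of 0 in all 4 backgrounds, while of the 10 lower probes 5 lie left of 0 in EGF and 5 in UT. The 2 lower probes without a gene symbol could not lie left of 0 in EGF, being at the floor there without TCDD.

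Cell cycle genes, which EGF is known to drive, gave no call. Of 37 tested S phase genes and 38 G2 and mitosis genes none was called, with medians of 0.13 and 0.02. The spread of the mitotic genes was narrow, from -0.29 to 0.54. Mki67, a marker of dividing cells, was at 13.98 and 12.72 with TCDD and at 13.24 and 13.71 without it, with overlap of the groups. No glucocorticoid responsive gene of 26 was called (median -0.18), and none of 28 EGF and ERK responsive genes was (median -0.08). Of 33 NRF2 and glutathione genes none was called, with 23 above 0 and a median of 0.20. Txnrd1, thioredoxin reductase, came near the threshold at 12.79 and 12.72 with TCDD and 11.95 and 11.78 without it (log2 0.89, adjusted p = 0.0608).

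The TCDD differences of the called genes in the other backgrounds come from other arrays. Those arrays also entered the calls, through the shared estimate of the spread, the floor and the filter on low values: Ifi47, which averaged 9.16 with TCDD and 7.16 without it in IDMB+EGF, passed the filter only through other groups. Of the 16 probes called higher, 16 were above 0 in IDMB, 15 in EGF and 9 in UT, with medians of 1.41, 1.37 and 0.33. Of the 10 called lower, 7 were below 0 in IDMB, 5 in EGF and 5 in UT, with medians of -0.72, -0.13 and 0.03. The 2 lower probes without a gene symbol were at the floor on both EGF arrays without TCDD, so they could not fall below 0 in EGF. Ifi47 was at the floor on every IDMB array without TCDD, so it could not fall below 0 in IDMB. Aldh3a1 entered the counts of higher probes with 2 probes. The share of all tested probes above 0 in these backgrounds is not given here. Aldh3a1 differed by log2 4.37 in IDMB (adjusted p = 2.22e-06), 3.86 in EGF (7.55e-05) and 3.39 in UT (6.83e-05). Gpc1 differed by 1.82 (0.000203), 2.30 (8.13e-05) and 1.52 (0.00098) in the same order, and Cyp1b1 by 1.23 (0.000895), 1.82 (0.000172) and 0.97 (0.00681). These 3 genes were thus called in every background. Plin2 was lower in IDMB (log2 -1.98, adjusted p = 0.000129) and not called in EGF (-0.26) or UT (-0.16, adjusted p = 0.703). Its mean level without TCDD was 13.66 in EGF and 13.88 in UT, against 16.23 in IDMB. Ackr3 was called in IDMB (1.51, adjusted p = 0.0011) beside 0.16 in EGF and -0.24 in UT. Vegfd and Fgfr2 gave 0.03 and 0.02 in IDMB. Tests of the difference between backgrounds called none of these. For Ackr3 in IDMB+EGF against EGF the test gave log2 1.38 (adjusted p = 0.801). Against IDMB it gave 1.39 for Vegfd (adjusted p = 0.0729) and -2.45 for Fgfr2 (adjusted p = 0.0962).

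Whether the TCDD difference in IDMB+EGF differed from that in IDMB was tested as an interaction. Limma called 70 of 7134 probes (0.981%), 42 with a higher (0.589%) and 28 with a lower TCDD difference in IDMB+EGF (0.392%), and 981 had an unadjusted p under 0.05. In 57 of the 70 the difference had opposite signs in the backgrounds, and in 61 its size was larger in IDMB, with median sizes of log2 0.43 in IDMB+EGF and 1.38 in IDMB. These values describe probes chosen for differing. There was 1 call without IDMB+EGF+TCDD 2, 7 without IDMB+TCDD 1, 10 without IDMB+EGF 1, 12 without IDMB 2, 14 without IDMB+TCDD 2, 22 without IDMB+EGF+TCDD 1 and 45 without IDMB+EGF 2. Without IDMB 1 or IDMB 3 there were 47 and 79. The counts were 4 and 1 with the actin and the Gapdh ratio as a covariate and 2 with the 9 arrays alone. The actin ratio was 1.99 and 2.07 on the IDMB+TCDD arrays and 1.80 to 2.25 on those of IDMB.

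Cd24a, a surface glycoprotein tied to the membrane by a lipid anchor, had the smallest adjusted p. In IDMB+EGF it was at 11.47 and 11.27 with TCDD and at 12.77 and 12.77 without it, 2.64-fold lower (log2 -1.40, SE 0.199, adjusted p = 0.00396, lost without IDMB+EGF+TCDD 2 at 0.0828). In IDMB it was at 12.28 and 11.92 with TCDD and at 11.11, 10.95 and 11.12 without it, a log2 difference of 1.04 (SE 0.181, adjusted p = 0.00272). In neither background did the groups overlap, and the differences had opposite signs. The interaction was log2 -2.44 (SE 0.269, adjusted p = 0.000753), was called in all 9 fits without 1 array (highest adjusted p = 0.0144), and was the 1 call left without IDMB+EGF+TCDD 2. In EGF alone Cd24a gave -0.88 (adjusted p = 0.101) and in UT 0.35 (adjusted p = 0.249).

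Ggh gave an interaction of log2 -1.88 (SE 0.300, adjusted p = 0.00951), with a difference of 0.38 in IDMB (adjusted p = 0.294). It was lost without IDMB+EGF+TCDD 2, IDMB+EGF 1 or IDMB+TCDD 1 (up to 0.0736). Acta2, the smooth muscle actin, was in IDMB+EGF at 11.57 and 11.76 with TCDD and 11.68 and 11.55 without it. In IDMB it was at 11.42 and 11.94 with TCDD and at 13.78, 13.15 and 13.44 without it, log2 -1.78 (adjusted p = 0.000129). The interaction of 1.83 (adjusted p = 0.00951) was lost without IDMB+EGF+TCDD 2 (0.0703) and without IDMB+TCDD 1 (0.0556).

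Among inflammatory genes, Ccl9 and Saa3 gave interactions. The chemokine Ccl9 was at 11.49 and 10.62 with TCDD and at 13.07 and 13.07 without it in IDMB+EGF (log2 -2.02, adjusted p = 0.0981). In IDMB it was at 11.19 and 10.27 with TCDD and at 14.93, 16.29 and 15.72 without it (log2 -4.91, adjusted p = 9.7e-06), with levels in the same range with TCDD in both backgrounds and higher ones in IDMB without it. Saa3, serum amyloid A3, was at 12.65 and 12.37 with TCDD and at 10.69 and 10.82 without it in IDMB+EGF (log2 1.76, adjusted p = 0.134). In IDMB it was at 13.21 and 13.59 with TCDD and at 13.78, 15.17 and 14.31 without it (-1.02, adjusted p = 0.141). In EGF alone the Saa3 difference was 2.86 (adjusted p = 0.005), from the floor on both arrays without TCDD, and in UT -2.94 (adjusted p = 0.000715). Both interactions had an adjusted p of 0.0433, and leaving out 1 array kept that of Ccl9 in 1 and that of Saa3 in 2 of 9 fits (up to 0.185 and 0.131).

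**Figure D5:**
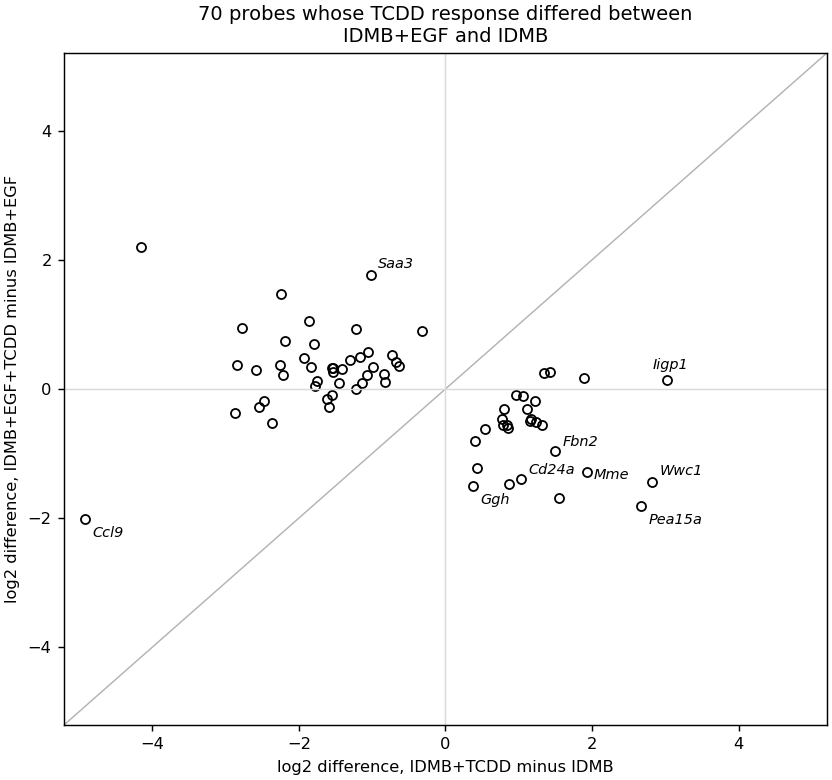
Log2 TCDD difference in IDMB (x axis) against that in IDMB+EGF (y axis) for the 70 probes whose difference was called unlike; the grey line is equality. Most points lie in the quadrants of opposite sign and closer to 0 on the y axis than on the x axis.

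Against EGF alone, no interaction was called. Limma called 0 of 7134 probes (0%), with a lowest adjusted p of 0.424 and 224 probes at an unadjusted p under 0.05. For Plin2 the interaction was log2 -1.32 (SE 0.342, adjusted p = 0.801), for Aldh3a1 0.71 (SE 0.512, adjusted p = 1) and for Ggh -1.69 (SE 0.314, adjusted p = 0.424). In simulated data of this design the test recovered 62% of interactions of log2 2 and 11% of those of log2 1, with 7 false calls of 80. For the interaction against IDMB it recovered 65% and 16%, with 4 false calls of 85, and for TCDD within IDMB+EGF 88% and 42%, with 6 false calls of 136. The simulated noise was normal and independent between arrays, had no floor and no effect of RNA length, and was drawn once. These rates need not hold for the real arrays. Differences of the smaller size were mostly missed even in the simulation, so an absent call does not show an absent difference.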

How the data were processed

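Total mRNA of C3H10T1/2 cells was measured on 18 mouse Affymetrix arrays in 8 groups, given by the labels. The deposited values are linear intensities per probe set, per the labels; the software that made them and its normalization are not given in the sources used here. Array medians lay between 793 and 936. Values below 143.5, the 20th percentile, were set to it and log2 was taken. Probes whose highest group mean reached the median of all log2 values (9.73) were tested, 7134 of 12488 on the array, for 5438 named genes. Of the 12422 non-control probes 10833 had 1 gene symbol, 396 several and 1193 none. Limma 3.58.1 in R 4.3.3 fitted 1 mean per group over all 18 arrays with a variance trend (10 residual and 6.03 prior degrees of freedom). Benjamini-Hochberg adjustment ran over all tested probes, and a probe was called at an adjusted p under 0.05. An exact permutation test of 2 arrays against 2 cannot go below 0.333. The number of arrays limits the precision.

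Named genes were the given markers, anchor genes of the lists, called genes with the largest differences in each direction, and the largest interactions. A gene with several probes was described by its brightest tested probe on lists and by the called probe otherwise. The members and lists were chosen with earlier results of these data known. Alternatives were another scaling, floor, filter, variance model, set of arrays, RNA ratio covariates, a replicate block and leaving out each array. The fit was tested on simulated data. Promoter windows came from RefSeq, build GRCm38.p6.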

Additional observations from a re-analysis of the deposited data

Results flagged for a closer look

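The results below stand out because the TCDD difference in IDMB+EGF was unlike that in IDMB by the limma interaction test, given as the log2 difference in IDMB+EGF minus that in IDMB. Cd24a gave -2.44 and was called without any 1 array. Ggh gave -1.88, Acta2 1.83, Mme -3.21 and Pea15a -4.49, each called in 6 or 7 of 9 fits without 1 array. Pea15a, which binds ERK, was in IDMB+EGF at 10.68 and 8.73 with TCDD and at 11.82 and 11.24 without it, and in IDMB at 11.57 and 10.68 with TCDD and at 8.63, 8.44 and 8.28 without it.

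The others were called in 3 or fewer of the 9 fits. The values of Myl9, Slc20a1, Wwc1 and Snapc3 depend on the floor. Myl9 was at it on both IDMB+EGF arrays, both IDMB+TCDD arrays and IDMB+EGF+TCDD 1, Slc20a1 on IDMB+EGF 1 and IDMB+TCDD 2, Wwc1 on IDMB+EGF+TCDD 1 and all 3 IDMB arrays, and Snapc3 on IDMB+EGF+TCDD 1 and IDMB 2. Higher in IDMB+EGF were the interactions of Myl9 (3.73), Slc20a1 (3.71), Gpr137b-ps (3.22), Gja1 (2.91), Ccl9 (2.89), Saa3 (2.78), Hk2 (1.87), Pik3ca (1.63), Gpam (1.47) and Txnrd1 (1.21). Lower were those of Wwc1 (-4.27), Snapc3 (-3.24), Iigp1 (-2.88), Fbn2 (-2.46) and Serpinh1 (-1.63). Of these 20 named genes 1, Cd24a, was called without IDMB+EGF+TCDD 2, the array with the highest 3′ to 5′ control ratios. The part of RNA length in these differences was not tested apart from the covariate fits.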

How the results depend on the processing

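No named result changed direction where it was called in the main fit or in the alternative. Leaving aside settings added later, 1297 values stayed on their side of the threshold, 160 lost a call, 8 gained one and 0 turned sign. Turns of sign were not counted for values called in neither fit. The count of 26 probes for TCDD in IDMB+EGF was 11 with the 4 arrays alone, 3 with the actin and 5 with the Gapdh ratio as a covariate, and 6 to 23 without 1 array. The covariates widened the standard errors, by a median of 1.235 and 1.193 times. The split of 16 higher and 10 lower was 13 and 11 with median scaling and 16 and 15 with a floor at the 40th percentile. The 70 interactions against IDMB were 38 with median scaling, 27 without a filter, 2 with the arrays of the contrast alone, 33 without a variance trend, 4 and 1 with the actin and Gapdh ratios, and 1 to 79 without 1 array. The 0 interactions against EGF were 1 with a floor at the 40th percentile, 2 without a filter and 0 to 1 without 1 array. Deviations of same-numbered arrays correlated at -0.10 in IDMB+EGF, 0.02 and 0.01 in IDMB, 0.08 in EGF and 0.16 and 0.07 in UT, so the numbers were not taken to pair the arrays. The replicate block gave 38 calls for TCDD in IDMB+EGF, 162 against IDMB and 0 against EGF. A crossed replicate block, added after seeing the data, gave 43, 136 and 0. Why counts moved was not tested.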

Other observations

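The following 6 lists gave no call for TCDD in IDMB+EGF. Of 17 tested fatty acid oxidation genes 9 lay below 0 (median log2 -0.09), of 11 fatty acid synthesis genes 7 (median -0.18) and of 12 cholesterol synthesis genes 9 (median -0.12). Of 24 genes of endoplasmic reticulum stress 15 lay below 0 (median -0.06), of 19 insulin and IGF genes 12 (median -0.15) and of 20 smooth muscle genes 12 (median -0.04). Over all 5438 tested genes 2577 lay below 0. In no list was the median as far from 0 as in the AhR (0.76) and lipid droplet lists (-0.79), among those with 10 or more tested genes. These lists hold the given markers Aldh3a1 and Plin2 and were chosen with earlier results of these data known. The ranking is therefore descriptive only.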
